A study of Mus musculus with 15 samples.

Results

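The immediate early genes Fos, Fosb, Jun, Junb, Atf3, Egr1, Nr4a1, Ier2, Dusp1 and Btg2 were followed in the lungs of mice fed permethrin, a pyrethroid insecticide. Members were all array probes whose RefSeq accession mapped to 1 of these 10 symbols, which gave 13 probes of 56605 on the array. Of the genes, 7 had 1 probe, and Btg2, Fosb and Junb had 2 each. After a filter on dim probes 12 of the 13 probes and all 10 genes were kept, among 34401 genes tested. Of these 34401, 19289 had a gene symbol, and each kept probe without a symbol was counted as a gene of its own.

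RNA came from the lungs of 15 mice, all female, 11 weeks old and of the outbred stock Crlj:CD1(ICR). Each of 5 groups held 3 mice fed a powdered diet for 7 days, with permethrin at 0 (control), 20, 500, 2500 or 5000 ppm. In the labels the groups differ by dose alone. Each array held RNA of 1 mouse, and the labels call the 3 mice of a diet biological replicates.

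Immediate early genes are transcribed within minutes of a stimulus, without new protein synthesis. The factors that switch them on, such as SRF with its ternary complex partners and CREB, are already present and are activated by phosphorylation. The mRNAs of immediate early genes are mostly short-lived, and many encode transcription factors or brakes that shape the later response. In tissue taken from an animal they are also known to respond to handling and to the time taken to dissect and preserve the sample.

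Between 72.0% and 87.6% of the spots of an array were well above background, and none was saturated. Levels are given as log2 signal, with 0 set at each array's own 75th percentile, so they compare 1 probe between mice and never 1 gene with another. The arrays lay on 2 slides, each with its own scan: slide 1 held all control and 20 ppm arrays and 500 ppm mice 1 and 2, and slide 2 held 500 ppm mouse 3 with the 6 arrays of 2500 and 5000 ppm. Against control, diet and slide cannot be told apart for the upper doses, beyond what 500 ppm mouse 3 adds. In a principal component analysis 500 ppm mouse 3 and 2500 ppm mouse 3 stood apart on the first component (36.48% of the variance), and control mouse 1 and 20 ppm mouse 1 stood apart on the second (17.93%). Defining markers of alveolar type 1 and 2, club and endothelial cells were well above background on all 15 arrays. Lung was measured in bulk, so fewer cells of a type and less RNA per cell cannot be told apart.

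Promoters are shown as a description of the genes. Several of these genes moved together from mouse to mouse, and whether promoter sites have a part in that was not tested. RefSeq's table for GRCm38.p6 matched 8 of the 10 genes, all but Egr1 and Ier2, and the 250 bases before the listed start were read in each. The windows of Fosb and Nr4a1 lie partly or wholly inside the annotated gene, at the start of another transcript. Capitals mark matches to the cAMP response element (CRE, TGACGTCA), its core TGACG, the EGR site GCGNGGGCG, or, on the forward strand, the TATA box TATAAA, and overlapping matches run together. The 6 promoters below, each 5' to 3' on the gene's strand, are those of Fos at chr12:85473640-85473889 (plus strand), Junb at chr8:84978749-84978998 (minus), Atf3 at chr1:191183334-191183583 (minus), Nr4a1 at chr15:101266596-101266845 (plus), Dusp1 at chr17:26508473-26508722 (minus) and Btg2 at chr1:134079156-134079405 (minus).
Fos: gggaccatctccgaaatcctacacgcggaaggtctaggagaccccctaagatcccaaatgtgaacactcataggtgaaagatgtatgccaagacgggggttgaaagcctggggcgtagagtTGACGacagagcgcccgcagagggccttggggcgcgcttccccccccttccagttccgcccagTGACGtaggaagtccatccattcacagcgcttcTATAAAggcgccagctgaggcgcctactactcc
Junb: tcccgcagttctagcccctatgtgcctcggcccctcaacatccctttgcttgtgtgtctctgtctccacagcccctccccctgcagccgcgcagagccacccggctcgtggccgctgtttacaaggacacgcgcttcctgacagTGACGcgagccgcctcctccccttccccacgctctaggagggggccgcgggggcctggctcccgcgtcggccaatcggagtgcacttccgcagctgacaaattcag
Atf3: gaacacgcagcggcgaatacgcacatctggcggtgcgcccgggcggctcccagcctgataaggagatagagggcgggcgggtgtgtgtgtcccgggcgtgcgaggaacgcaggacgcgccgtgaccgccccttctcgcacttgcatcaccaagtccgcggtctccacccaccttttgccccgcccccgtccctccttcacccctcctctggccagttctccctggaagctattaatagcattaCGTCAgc
Nr4a1: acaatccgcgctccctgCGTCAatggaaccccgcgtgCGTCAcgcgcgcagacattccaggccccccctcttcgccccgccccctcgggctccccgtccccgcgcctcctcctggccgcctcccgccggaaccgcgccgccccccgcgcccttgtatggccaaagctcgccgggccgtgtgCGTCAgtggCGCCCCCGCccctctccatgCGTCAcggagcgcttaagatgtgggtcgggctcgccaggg
Dusp1: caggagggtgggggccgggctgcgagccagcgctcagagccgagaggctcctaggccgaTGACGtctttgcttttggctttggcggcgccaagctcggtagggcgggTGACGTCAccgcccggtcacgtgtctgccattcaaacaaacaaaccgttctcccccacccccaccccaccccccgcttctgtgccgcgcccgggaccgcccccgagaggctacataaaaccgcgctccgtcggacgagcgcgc
Btg2: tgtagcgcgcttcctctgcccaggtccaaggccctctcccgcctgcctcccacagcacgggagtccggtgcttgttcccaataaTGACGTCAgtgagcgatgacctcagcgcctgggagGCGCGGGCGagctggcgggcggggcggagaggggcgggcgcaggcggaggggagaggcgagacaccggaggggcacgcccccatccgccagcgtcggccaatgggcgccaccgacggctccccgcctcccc
The core TGACG, searched on both strands and also part of every CRE, was found in 7 of the 8 windows, in all but that of Jun, against 17.8% of 32851 promoters of the same length. Nr4a1 held 4 copies, at -233, -213, -69 and -40 from the start, and Fos held 2, at -129 and -66. The whole CRE was found in Dusp1 at -143 and in Btg2 at -166, and in 1.55% of all promoters. The EGR site was found in Fosb, Nr4a1 and Btg2 (3 of 8) and in 4.7% of all promoters, and TATAAA in Fos alone, 33 bases before the start, and in 7.59% of all. Neither the AP-1 site TGANTCA (6.75% of all promoters) nor the CArG box, the site of SRF (1.47%), had a match in these 8 windows. Sites beyond the 250 bases, and the promoters of Egr1 and Ier2, were not searched, so this does not show that a gene lacks such a site. A match is a description of the letters, not a binding site shown by these data.

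Diet moved none of the 10 genes past the threshold, while single mice differed widely. Over the 15 mice the highest level stood above the lowest by 4.53-fold for Atf3, 4.50-fold for Fos, 4.31-fold for Btg2, 3.87-fold for Egr1, 3.74-fold for Nr4a1 and 2.52-fold for Ier2. The ranges were narrower for Junb (2.27-fold), Dusp1 (2.15-fold), Jun (1.91-fold) and Fosb (1.75-fold). Control mouse 1 was the highest mouse for Fos, Junb, Atf3, Nr4a1 and Ier2, and 500 ppm mouse 1 was the highest for Jun, Egr1, Dusp1 and Btg2.

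**Figure D1:**
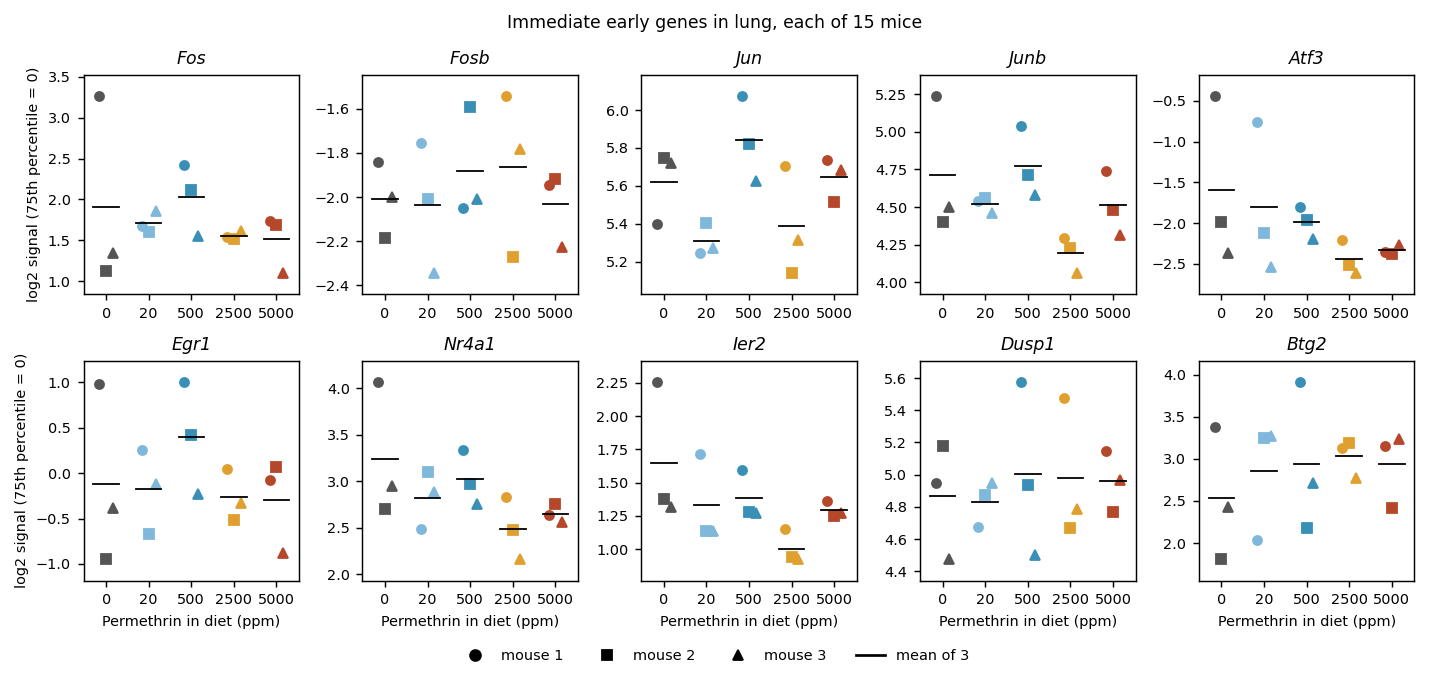
Log2 signal (vertical axis, 0 at the array's 75th percentile) of the 10 immediate early genes against permethrin in the diet in ppm; each point is 1 mouse, its shape gives the mouse number, the line is the mean of 3 mice, and each panel has its own scale. Control mouse 1 stands above the other 14 mice for Fos (3.27), Junb (5.24), Atf3 (-0.44), Nr4a1 (4.07) and Ier2 (2.26).

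Fos, Fosb, Jun and Junb encode subunits of AP-1, the dimeric factor in which a Fos protein pairs with a Jun protein. Fos measured 3.27, 1.12 and 1.34 in the 3 controls, 1.67, 1.60 and 1.86 at 20 ppm, 2.42, 2.11 and 1.55 at 500 ppm, 1.54, 1.51 and 1.62 at 2500 ppm and 1.74, 1.69 and 1.10 at 5000 ppm. One control was the highest of all 15 mice and the other 2 controls were among the lowest, so every diet overlapped with control. The means ran from 2.03 ± 0.44 (SD, n = 3) at 500 ppm to 1.51 ± 0.36 at 5000 ppm, with control at 1.91 ± 1.18. No neighbours in the order of means were free of overlap. The SD of the controls was 1.18, against 0.06 at 2500 ppm.

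Junb, a Jun family member that is a weaker activator than Jun, measured 5.24, 4.40 and 4.50 in controls, 4.54, 4.56 and 4.46 at 20 ppm, 5.04, 4.71 and 4.58 at 500 ppm, 4.29, 4.23 and 4.06 at 2500 ppm and 4.74, 4.48 and 4.31 at 5000 ppm. The 3 mice at 2500 ppm were the lowest of all and lay below every control and below every mouse at 5000 ppm. The mean was 4.19 ± 0.12 (SD, n = 3) at 2500 ppm and 4.71 ± 0.46 in controls, a log2 difference of -0.52 ± 0.21 (SE), which did not pass (limma adjusted p = 0.511). A second, much dimmer Junb probe was also highest in control mouse 1 (-1.57, against a median of -3.20), and its diet means at 2500 and 5000 ppm stood in the opposite order, -3.20 ± 0.10 and -3.32 ± 0.27. It was next highest in 500 ppm mouse 3 (-2.19) and 20 ppm mouse 1 (-2.23), which also stood apart in the principal component analysis. The main probe was near its median of 4.50 in both (4.58 and 4.54). The probes correlated at r 0.56 over 15 arrays and at r 0.212 over the 14 without control mouse 1.

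Jun measured 5.40, 5.74 and 5.72 in controls, 5.25, 5.40 and 5.27 at 20 ppm, 6.07, 5.82 and 5.63 at 500 ppm, 5.70, 5.14 and 5.31 at 2500 ppm and 5.74, 5.51 and 5.69 at 5000 ppm. It did not share the peak of Fos and Junb in control mouse 1, which was the lowest control for this gene. Its means ran from 5.84 ± 0.22 at 500 ppm to 5.31 ± 0.08 at 20 ppm (SD, n = 3). Of the 10 genes Jun had the smallest p for any difference among the diets, and it did not pass (limma F test, adjusted p = 0.969). Fosb, a second partner of the Jun proteins, was dim, between -2.35 and -1.54 over the 15 mice with a median of -2.0, and every diet overlapped with every other. Its second probe was well above background on 7 arrays and was not kept.

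Atf3, a basic leucine zipper factor of the ATF/CREB family induced by many stresses, measured -0.44, -1.99 and -2.37 in controls, -0.76, -2.12 and -2.54 at 20 ppm, -1.80, -1.97 and -2.20 at 500 ppm, -2.21, -2.51 and -2.62 at 2500 ppm and -2.35, -2.38 and -2.27 at 5000 ppm. Control mouse 1 and 20 ppm mouse 1 stood above the other 13, and the remaining mice of those diets lay in the range of the higher doses. The order of means followed dose down to 2500 ppm, from -1.60 ± 1.02 in controls to -2.44 ± 0.21 (SD, n = 3), with -2.33 ± 0.06 at 5000 ppm. The log2 differences from control were -0.85 ± 0.47 (SE) at 2500 ppm and -0.74 ± 0.47 at 5000 ppm, and neither passed (limma adjusted p = 0.696 and 0.967). Among neighbours in that order only 500 and 5000 ppm did not overlap.

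Egr1, a zinc finger factor that binds GC-rich sites, measured 0.98, -0.95 and -0.39 in controls, 0.25, -0.67 and -0.12 at 20 ppm, 1.0, 0.42 and -0.23 at 500 ppm, 0.05, -0.52 and -0.32 at 2500 ppm and -0.07, 0.07 and -0.88 at 5000 ppm. The controls held both the lowest mouse of the 15 and the second highest, so no diet could be set apart from them. Means ran from 0.40 ± 0.62 at 500 ppm to -0.29 ± 0.51 at 5000 ppm (SD, n = 3). Nr4a1, an orphan nuclear receptor, measured 4.07, 2.70 and 2.95 in controls, 2.48, 3.1 and 2.89 at 20 ppm, 3.34, 2.97 and 2.76 at 500 ppm, 2.84, 2.47 and 2.16 at 2500 ppm and 2.63, 2.76 and 2.56 at 5000 ppm. Control mouse 1 stood alone at the top, and the other controls overlapped with each diet. The means were 3.24 ± 0.73 in controls, 2.49 ± 0.34 at 2500 ppm and 2.65 ± 0.10 at 5000 ppm (SD, n = 3), differences of -0.75 ± 0.32 and -0.59 ± 0.32 (SE) that did not pass (limma adjusted p = 0.525 and 0.964).

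Ier2, which encodes a small nuclear protein, measured 2.26, 1.38 and 1.31 in controls, 1.71, 1.14 and 1.14 at 20 ppm, 1.60, 1.28 and 1.27 at 500 ppm, 1.15, 0.94 and 0.92 at 2500 ppm and 1.36, 1.25 and 1.27 at 5000 ppm. All 3 mice at 2500 ppm lay below the 3 controls and below the 3 mice at 5000 ppm, although mouse 1 of that diet stood just above the lower mice at 20 ppm. The mean was 1.0 ± 0.13 at 2500 ppm and 1.65 ± 0.53 in controls (SD, n = 3), a difference of -0.64 ± 0.24 (SE) that did not pass (limma adjusted p = 0.439). At 5000 ppm the mean was 1.29 ± 0.06 (SD, n = 3).

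Dusp1, a phosphatase that switches MAP kinases off, measured 4.95, 5.18 and 4.47 in controls, 4.68, 4.87 and 4.95 at 20 ppm, 5.58, 4.93 and 4.50 at 500 ppm, 5.48, 4.67 and 4.78 at 2500 ppm and 5.15, 4.77 and 4.97 at 5000 ppm. Mice 1 at 500 and 2500 ppm were the highest, and all diets overlapped. Its means lay within 4.83 ± 0.14 at 20 ppm and 5.0 ± 0.54 at 500 ppm (SD, n = 3). Btg2, an antiproliferative gene that p53 also induces, measured 3.38, 1.80 and 2.43 in controls, 2.04, 3.25 and 3.27 at 20 ppm, 3.91, 2.18 and 2.71 at 500 ppm, 3.13, 3.19 and 2.77 at 2500 ppm and 3.16, 2.41 and 3.23 at 5000 ppm. Low and high mice occurred on the control, 20 and 500 ppm diets alike. Its other probe correlated with this one at r 0.379 over the 15 arrays. That probe placed 2500 ppm lowest (2.30 ± 0.80, SD, n = 3) where the probe used placed it highest (3.03 ± 0.22). The order of diets and the distances between mice for Btg2 thus depended on the probe.

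The 4 comparisons with control asked whether dietary permethrin changed these genes. None of the 10 passed at an adjusted p of 0.05 by limma at any dose, where the share of all 34401 genes called was 0% at 20, 500 and 2500 ppm and 0.0407% at 5000 ppm. At an unadjusted p under 0.05 the count of members was 0 at 20 ppm (1.48% of all genes), 0 at 500 ppm (2.84%), 3 at 2500 ppm (8.49%) and 0 at 5000 ppm (5.14%). The 3 were Ier2, Junb and Nr4a1, with limma adjusted p of 0.439, 0.511 and 0.525. In the trend over the 5 dose ranks (0.142% of all genes called) and in the F test for any difference (0.0407%) the count was 0 as well, and 0 at an unadjusted p under 0.05 (9.22% and 5.35% of all genes). Nr4a1 had the smallest p on the trend (-0.15 ± 0.07 log2 per rank, limma adjusted p = 0.547). At 2500 ppm 2 members, Junb and Ier2, had all 3 treated mice below all 3 controls, as had 4.73% of all genes, and 0 had them all above (8.83%). At the other doses 0 members lay wholly below or above the controls, where the shares of all genes were 4.35% below and 1.5% above at 20 ppm, 2.16% and 4.53% at 500 ppm, and 4.99% and 12.9% at 5000 ppm.

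Seen as a list, 9 of the 10 genes were below control at 20 ppm (55.6% of all genes), 3 at 500 ppm (29.6%), 7 at 2500 ppm (42.7%) and 7 at 5000 ppm (39.4%). The median log2 difference of the 10 was -0.20 at 20 ppm, 0.12 at 500 ppm, -0.29 at 2500 ppm and -0.19 at 5000 ppm, beside medians over all genes of -0.03, 0.12, 0.05 and 0.07. All 4 comparisons share the same 3 controls. Single differences ran from -0.42 (Nr4a1) to 0.31 (Btg2) at 20 ppm, from -0.39 (Atf3) to 0.52 (Egr1) at 500 ppm, from -0.85 (Atf3) to 0.49 (Btg2) at 2500 ppm and from -0.74 (Atf3) to 0.40 (Btg2) at 5000 ppm.

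Leaving out control mouse 1 moved 8 of the 10 differences at 20 ppm, 4 at 500 ppm, 6 at 2500 ppm and 8 at 5000 ppm toward or past 0, and the others away from it. Without it the median of the 10 genes was 0.06 at 20 ppm, 0.20 at 500 ppm, -0.05 at 2500 ppm and 0.06 at 5000 ppm. Leaving out either other control moved the medians down, to -0.38, -0.03, -0.62 and -0.43 at the 4 doses in turn without control mouse 2, and to -0.28, -0.05, -0.45 and -0.31 without control mouse 3. Among treated mice, the median at 20 ppm was -0.10 without mouse 2 of that diet and -0.13 without mouse 3, that at 500 ppm -0.09 without its mouse 1 and 0.26 without its mouse 3, and that at 5000 ppm -0.30 without its mouse 1 and -0.05 without its mouse 3.

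Leaving out control mouse 1 raised the difference of every member but Jun at each dose, whether toward 0 or away from it. Jun, which was lower in that mouse than in the other controls, fell (at 2500 ppm from -0.24 to -0.35). Without control mouse 1, at 500 ppm, Egr1 went from 0.52 to 1.06 ± 0.40 (log2 ± SE) and Fos from 0.12 to 0.79 ± 0.25. Btg2 went from 0.40 to 0.82 ± 0.50, and no member passed. At 2500 ppm the difference of Ier2 became -0.34 ± 0.19 (SE), that of Junb -0.26 ± 0.17, that of Nr4a1 -0.34 ± 0.24 and that of Atf3 -0.27 ± 0.40. Fos turned from -0.35 ± 0.44 to 0.32 ± 0.25 and Egr1 from -0.15 ± 0.46 to 0.40 ± 0.40. At 5000 ppm Fos turned from -0.40 to 0.28, Egr1 from -0.18 to 0.37 and Junb from -0.20 to 0.06.

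**Figure D2:**
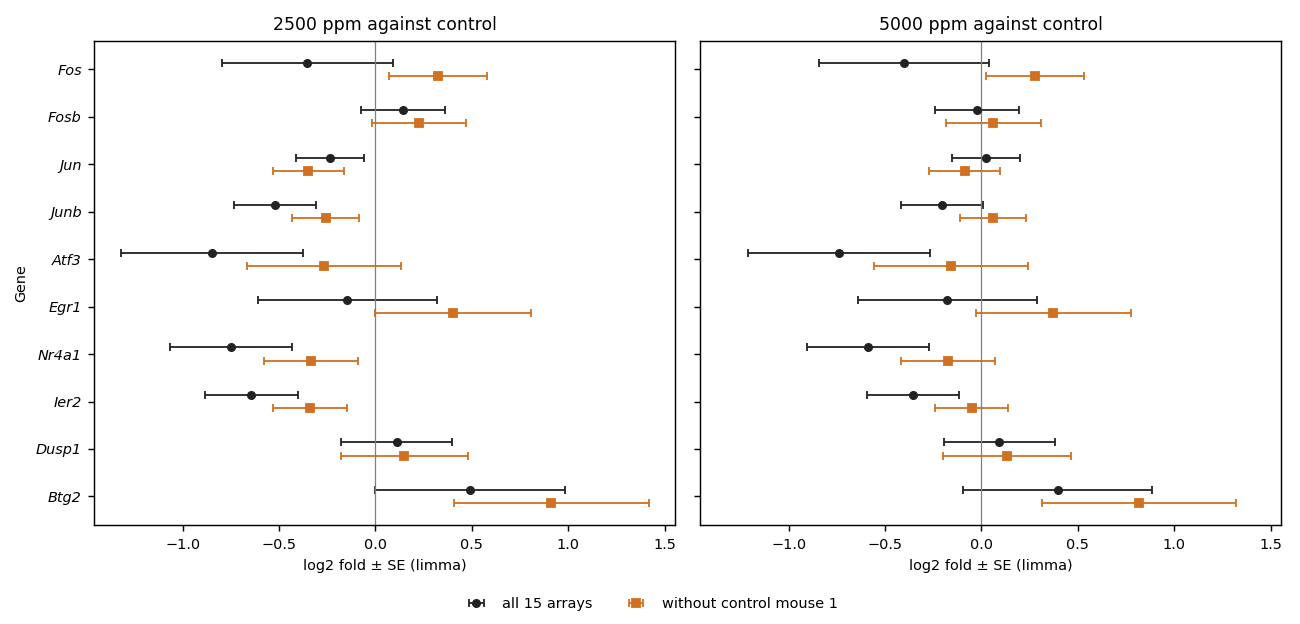
Log2 difference from control (horizontal axis, ± SE from limma) of the 10 genes at 2500 ppm (left) and 5000 ppm (right), with all 15 arrays (black circles) and without control mouse 1 (orange squares). At 2500 ppm Fos stands at -0.35 with all arrays and at 0.32 without that mouse, and Ier2 at -0.64 and -0.34.

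The slide could be held constant for part of the design. Within slide 2, 5000 ppm stood above 2500 ppm by 0.32 ± 0.16 for Junb and by 0.29 ± 0.13 for Ier2 (log2 ± SE, limma adjusted p = 0.746 and 0.724), and the other 8 genes differed by -0.17 to 0.26. Within slide 1, an alternative chosen after the data were seen, the median of the 10 was -0.20 at 20 ppm and 0.26 at 500 ppm, where 2 mice remained. With a fixed slide term, carried by 500 ppm mouse 3 alone, the medians at 2500 and 5000 ppm turned to 0.21 and 0.24. That array stood apart on the first component, and 24.2% of all genes were at least 1 above the mean of its diet mates. Of the 10 genes 0 were above that mean, with a median of -0.33 (log2). The fixed term cannot tell a slide effect from the deviation of this array, so the change of sign is not read as a slide adjustment. With the slide as a random block the medians at 2500 and 5000 ppm were -0.13 and -0.04, and no member passed in any of these fits.

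Control mouse 1 carried high levels of most of the 10 genes. It was above the 2 other controls in 8 of 10, a pattern seen in 22.3% of all genes, and above all 14 other mice in 5 of 10, against 5.82% of all genes. Its level minus the mean of the other controls was 2.03 for Fos, 1.74 for Atf3, 1.65 for Egr1, 1.26 for Btg2, 1.24 for Nr4a1, 0.91 for Ier2 and 0.79 for Junb (log2). The difference was 0.25 for Fosb, 0.12 for Dusp1 and -0.33 for Jun. The other Btg2 probe read 3.067 in control mouse 1 and 2.668 and 2.525 in the other controls, a smaller gap. The median of the 10 was 1.08, beside -0.24 over all genes, and 5 of 10 stood at least 1 higher, as did 5.61% of all genes. These 10 genes were picked with earlier results of these arrays known, and the mouse was singled out after its values were seen, so the counts are a description without a test.

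A second mouse, 500 ppm mouse 1, was also high, with another set of leading genes. It was above its 2 diet mates in 9 of 10 genes (26.3% of all genes) and above all 14 other mice in 4 of 10 (3.31%). Its level minus the mean of its diet mates was 1.47 for Btg2, 0.91 for Egr1, 0.86 for Dusp1 and 0.59 for Fos, values reached by 0.265%, 0.759%, 0.878% and 2.09% of all genes. Those mates include 500 ppm mouse 3, on the other slide, where 24.2% of all genes stood at least 1 above its mates. That array enters both the differences and the shares. Mice 1 and 2 alone read 1.0 and 0.42 for Egr1, 5.58 and 4.93 for Dusp1 and 2.42 and 2.11 for Fos. The other Btg2 probe read 3.29, 2.74 and 2.38 in 500 ppm mice 1, 2 and 3. In 20 ppm mouse 1, which stood with control mouse 1 on the second component, 4 of 10 genes were above both mates (21.8% of all genes). There Atf3 was 1.57, Egr1 0.65 and Ier2 0.57 higher, while Nr4a1 was -0.51 and Btg2 -1.22. The other Btg2 probe read 2.581 in that mouse and 2.715 and 2.714 in its mates, a far smaller gap. In 2500 ppm mouse 1, 9 of 10 genes were above the mean of its diet mates (40% of all genes). The median of the 10 was 0.41 above those mates, near the 0.43 of 500 ppm mouse 1 (9 of 10, 40.4% of all genes). The mean z-score of the 10 genes was 1.59 in control mouse 1 and 1.25 in 500 ppm mouse 1, next highest in 500 ppm mouse 2 (0.378), and lowest in 2500 ppm mouse 2 (-0.817).

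**Figure D3:**
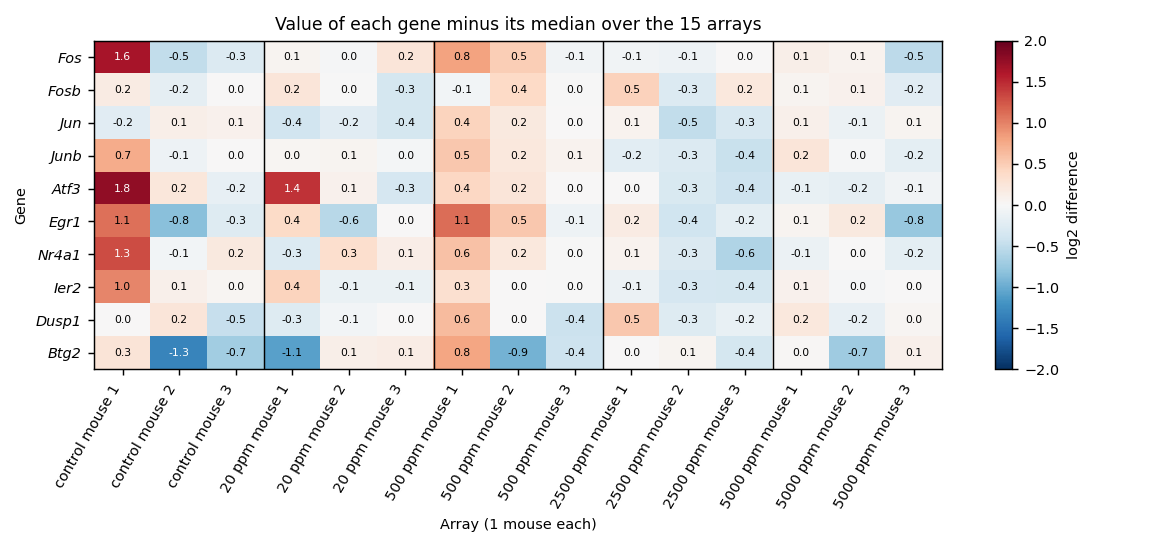
Level of each of the 10 genes (rows) in each of the 15 mice (columns, ordered by diet) minus the gene's median over the 15 arrays, in log2 units on the colour scale. Red cells gather in control mouse 1 (Fos, Atf3, Egr1, Nr4a1 and Ier2) and in 500 ppm mouse 1, the highest mouse for Jun, Egr1, Dusp1 and Btg2, and 20 ppm mouse 1 is red for Atf3.

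Other marker lists moved in the same mice. In control mouse 1, dendritic cell and MHC class II markers were 1.82 above its diet mates on average (log2, 5 of 5 higher), adipocyte markers 1.54 (3 of 4), monocyte and macrophage markers 1.10 (3 of 5), atrial muscle markers 0.89 (4 of 5) and smooth muscle markers 0.74 (4 of 5), while alveolar type 1 markers were 0.55 lower (-0.55, 0 of 5 higher). Control mouse 3 was higher still for the mean of adipocyte markers (0.93, against 0.612 in control mouse 1 and -2.79 in control mouse 2). It was also higher for atrial muscle markers (2.26, against 1.79 and -0.45). Genes within a list differed in control mouse 1: H2-DMa (3.46), H2-Eb1 (2.82) and H2-Aa (2.51) stood far above Cd74 (0.21) and H2-Ab1 (0.12). H2-Eb1 read 6.57 in control mouse 1, 1.76 in control mouse 2 and 5.73 in control mouse 3, so its gap rests largely on control mouse 2. In control mouse 1 C1qa (3.36) and Lyz2 (2.61) stood far above Cx3cr1 (0.03), Csf1r (-0.18) and Ly6c2 (-0.31). Heat shock genes known to respond to handling (Hspa1a, Hspa1b, Dnajb1 and Hsph1) were 0.53 above the mean of its mates (4 of 4). The mean of that list was 3.94 in control mouse 1, 3.94 in control mouse 2 and 2.87 in control mouse 3, so control mouse 1 did not stand alone. Glucocorticoid responsive genes stood at -0.72 in control mouse 1 (0 of 6 higher). In 20 ppm mouse 1 the MHC class II list stood at 1.0 (5 of 5), the heat shock list at 1.31 (4 of 4), adipocyte markers at 1.26 (4 of 4), NK cell markers at -1.07 (0 of 4), B cell markers at -1.04 (1 of 4) and the glucocorticoid list at -0.79 (0 of 6). In 500 ppm mouse 1 adipocyte markers stood at -3.73 (0 of 4), atrial muscle markers at -1.69 (0 of 5) and the heat shock list at -0.14 (2 of 4).

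Across diets the mean level of the heat shock list ran from 2.87 to 3.94 in controls, 2.84 to 4.2 at 20 ppm, 2.87 to 3.02 at 500 ppm, 3.22 to 4.45 at 2500 ppm and 2.88 to 4.37 at 5000 ppm. Its highest mouse, 2500 ppm mouse 1 (4.45), was the highest for Fosb and second highest for Dusp1, and was not among the highest for Fos or Atf3. Next came 5000 ppm mouse 3 (4.37), the lowest mouse for Fos, and 20 ppm mouse 1 (4.2), second highest for Atf3 and Ier2. The heat shock list was near its lower end in 500 ppm mouse 1, at 2.87. The MHC class II list ran from 2.61 to 4.58 in controls, 3.48 to 4.54 at 20 ppm, 2.48 to 3.25 at 500 ppm, 2.06 to 3.23 at 2500 ppm and 2.43 to 3.68 at 5000 ppm. H2-Eb1 alone ran from 1.67 in 2500 ppm mouse 2 to 6.95 in 20 ppm mouse 1, which weighs on these means. All markers of both lists were well above background on all 15 arrays, so none was at 0. The part of cell makeup, handling or sampling in the levels of the 10 genes was not tested.

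Spread between mice of a diet differed among the genes. The SD within diets, pooled over the 5 diets (10 degrees of freedom), was 0.659 for Btg2, 0.633 for Atf3, 0.621 for Egr1 and 0.589 for Fos, and 16.3%, 18%, 18.7% and 20.9% of all genes had a larger one. It was 0.409 for Nr4a1, 0.366 for Dusp1, 0.297 for Ier2, 0.264 for Fosb, 0.257 for Junb and 0.196 for Jun, beside a median over all genes of 0.318. Without control mouse 1 the SD of Fos was 0.281, under the median of all genes (0.306), and that of Junb was 0.165. The SD of Btg2 (0.604), Egr1 (0.477) and Atf3 (0.470) stayed above that median. The SD of Btg2 is that of the probe used. Its other probe differed within single diets, with 0.08 against 0.71 at 20 ppm and 0.80 against 0.22 at 2500 ppm.

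The 10 genes were correlated over the 15 arrays, as a description, since the arrays share diets, slides and scaling. Of 45 pairs 42 had a positive Pearson r and 16 an r over 0.5, with a median of 0.316 and a range from -0.252 (Fosb with Btg2) to 0.914 (Atf3 with Ier2). Fos and Egr1 stood at 0.881 and at 0.903 without control mouse 1, Atf3 and Ier2 at 0.914 and 0.82, and Junb and Nr4a1 at 0.863 and 0.755. By contrast Fos with Atf3 went from 0.634 to 0.189 without that mouse. The AP-1 partners Fos and Jun were nearly unrelated (0.0198, and 0.254 without it), while Jun went with Dusp1 (0.551, and 0.563 without it). Without control mouse 1, 41 of the 45 pairs were positive, 10 had an r over 0.5, and the median was 0.351.

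**Figure D4:**
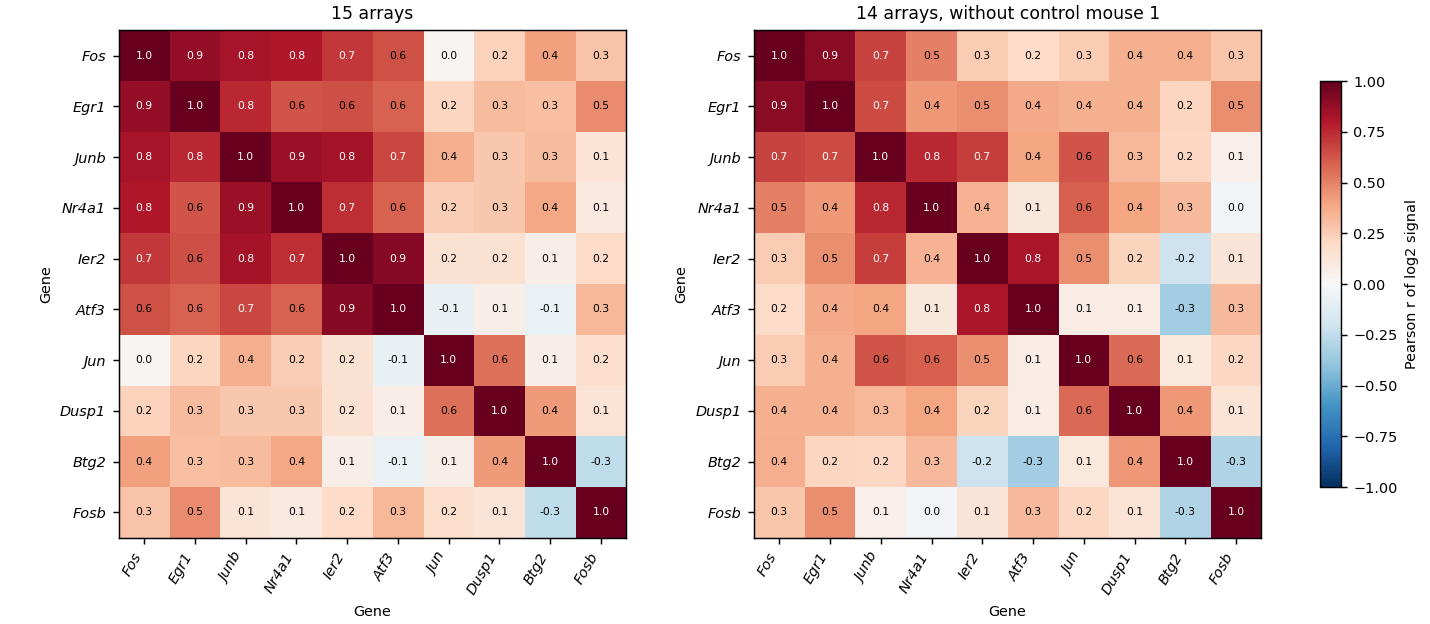
Pearson r of log2 signal between each pair of the 10 genes over 15 arrays (left) and over the 14 arrays without control mouse 1 (right), with colour from -1 to 1. The pairs Fos with Egr1 and Atf3 with Ier2 stay high in both panels (0.881 and 0.903, 0.914 and 0.82), and Fos with Atf3 falls from 0.634 to 0.189.

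Among the genes most like the mean z-score of the 10 over the 15 arrays, by Pearson r, were Akna (0.829), B4galt6 (0.77), Ccl2 (0.759), Srebf2 (0.757), Gm15441 (0.725), Zfp36 (0.715) and Ccn1 (0.713). Zfp36, an mRNA decay factor, and Ccn1, a matricellular protein, belong to the wider list of rapidly induced genes. Without control mouse 1, the highest array for Akna, B4galt6, Ccl2 and Srebf2, their r was 0.704, 0.677, 0.65 and 0.611, that of Ccn1 was 0.427, and those of Gm15441 and Zfp36 were 0.747 and 0.741. Ccn1 was highest in control mouse 1 (2.99) and next in 500 ppm mouse 1 (2.38), with a median of 1.5. After the mean of each diet was taken off, the closest included Srsf5 (0.902), 1700065D16Rik (0.894), Dpm2 (0.889), Dnlz (0.886), Srebf2 (0.885), Ltbp3 (0.885) and Amotl2 (0.881), and Srebf2 was in both lists. Without control mouse 1 these r ran from 0.754 (Srebf2) to 0.949 (Amotl2).

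The wider list held 85 other rapidly induced genes, upstream factors, MAP kinases and brakes, of which 81 were measured. None passed at any dose, on the trend or in the F test by limma (background as above), and 2, 1, 3 and 2 of the 81 had an unadjusted p under 0.05 at 20, 500, 2500 and 5000 ppm. Their median differences were 0.03, 0.07, -0.08 and 0.03 (log2). The smallest adjusted p was that of Ier5l at 2500 ppm (limma adjusted p = 0.23).

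By class, 45 of 48 other induced genes, 16 of 16 upstream factors and 22 of 23 kinases and brakes were measured, with Dusp4 and Dusp6 counted in 2 classes. The largest differences at 5000 ppm among induced genes were Per1, a clock gene (0.94 ± 0.49, log2 ± SE), Nr4a3 (0.59 ± 0.41) and Errfi1, an inhibitor of the EGF receptor (0.55 ± 0.45). Among upstream factors they were Elk1 (0.28 ± 0.19), a ternary complex factor, its relative Elk4 (-0.25 ± 0.17) and Stat3 (0.19 ± 0.18). Among kinases and brakes they were Rps6ka3 (-0.57 ± 0.56), Mapk3 (-0.44 ± 0.52), which encodes ERK1, and Jdp2 (0.42 ± 0.21), a repressor of AP-1. None of these passed (limma adjusted p from 0.964 to 0.970). Without control mouse 1, an alternative added after the data were seen, Per1 stood at 0.45, Nr4a3 at 0.38 and Errfi1 at 0.32, Elk1 at 0.18, Elk4 at -0.17 and Rps6ka3 at -0.93, Jdp2 stood at 0.25, and Mapk3 and Stat3 turned to 0.21 and -0.03.

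Close relatives of the 10 genes did not pass either. At 5000 ppm the AP-1 subunits Fosl1, Fosl2 and Jund stood at 0.50 ± 0.50, -0.12 ± 0.17 and 0.23 ± 0.31 (log2 ± SE), Egr2 at -0.34 ± 0.18 and the nuclear receptor Nr4a2 at -0.04 ± 0.20. Without control mouse 1 Egr2 stood at -0.51, Nr4a2 turned to 0.11 and Jund came to -0.0025. Egr3 was well above background on 7 arrays and Egr4 on 0, and neither was kept. In control mouse 1, 4 of the 81 genes stood at least 1 above the mean of the other controls, as did 5.61% of all genes. They were Mapk3 (1.94), Batf3 (1.54), Ccn1 (1.49) and Cxcl1 (1.08). The median of the 81 was -0.26, beside -0.24 over all genes. Nr4a3 (-0.64), Jund (-0.70), Egr2 (-0.51) and Per1 (-1.47) were lower in control mouse 1 than in the other controls, unlike Nr4a1, Junb and Egr1. Nr4a2 (0.46) was higher there, and Fosl1 (-0.10) and Fosl2 (-0.11) were slightly lower. To be lower was common, since 30.4% of all genes were above the mean of the other controls in that mouse.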

How the data were processed

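Per the file headers, Agilent Feature Extraction 10.7.3.1 made the spot values, and the deposited scanner files hold background-subtracted processed intensity per spot on a linear scale. The authors' deposited table holds log2 values, which equalled log2 of that intensity up to 1 constant per array (r = 1). Here control spots and outlier flags were left out, spots of a probe averaged, and log2 intensity set to 0 at each array's 75th percentile. Probes well above background in at least 50% of spots on all 3 arrays of a diet were kept (43154 of 56605). Accessions were matched to GRCm38.p6 RefSeq symbols, and 21930 probes had none. The kept probe of highest mean stood for a gene, and each kept probe without a symbol was counted as a gene of its own.

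Tests used limma 3.58.1 (R 4.3.3, 1 coefficient per diet, 10 residual degrees of freedom, Benjamini-Hochberg over 34401 genes, two-sided, threshold 0.05). In simulated data for 5000 ppm against control, 23% of genes changed by log2 1 and 70% of those changed by 2 were recovered, so changes of either size can be missed and a count of 0 does not show that no gene changed. The number of arrays limits the precision. Like-numbered control and 20 ppm arrays deviated together (r 0.611, 0.26 and 0.165), but so did control 2 with 20 ppm 3 (r 0.373) and control 3 with 20 ppm 2 (r 0.375). Over all 30 like-numbered pairs r ran from -0.249 to 0.611. Named are all 10 members, of each wider class the 3 genes with the largest difference at 5000 ppm, all family relatives, and the 8 genes nearest in pattern by each measure, of which 1 in each is not reported here. Members, lists and rules were chosen with earlier results of these data known. Alternatives covered background correction, scaling, filters, probe choice, slide, replicate number, weights, empirical Bayes settings, the arrays fitted and each array left out.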

Additional observations from a re-analysis of the deposited data

How the results depend on the processing

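Depth of signal limited few members, since all but 1 probe were well above background on all 15 arrays. The count of members past the threshold was 0 in all 192 alternative counts, and the smallest adjusted p was 0.098 (any difference, array weights). With the replicate block it was 0 in every comparison, with 13 genes in all at 5000 ppm against 14 and 7 against 14 for any difference. The 14 genes called at 5000 ppm became 5 without control mouse 1 or 5000 ppm mouse 2, 6 without control mouse 2 or 5000 ppm mouse 1, 7 without 5000 ppm mouse 3, 33 without 500 and 2500 ppm mouse 3, 165 with array weights and 4952 under a fixed slide block, and the 0 at 2500 ppm became 46 without 2500 ppm mouse 3, 701 with array weights and 5055 with that block. With 1 array left out the 49 genes on the trend ran from 14 to 76 and the 14 for any difference from 5 to 23. The array median as scale moved the median of all genes at 500 ppm from 0.12 to -0.11 and that of the 10 to -0.11. Of 1300 alternative differences of single members 1194 kept their sign and 106 changed it, and the cause was not tested. The log2 differences that changed sign follow. With normexp, at 20 ppm Fosb 0.016 and at 5000 ppm Fosb 0.063, Jun -0.026 turned. With quantile normalization, at 500 ppm Fosb -0.13 and at 5000 ppm Fosb 0.030, Jun -0.14, Dusp1 -0.056 turned. With the array median as scale, at 500 ppm Fos -0.11, Fosb -0.10, Jun -0.010, Junb -0.17, Dusp1 -0.095 turned. With the slide as a fixed block, at 2500 ppm Fos 0.36, Jun 0.083, Egr1 0.79 and at 5000 ppm Fos 0.31, Fosb 0.16, Junb 0.092, Egr1 0.76 turned. The fixed block rested on 500 ppm mouse 3 alone. With the slide as a random block, at 2500 ppm Egr1 0.15 and at 5000 ppm Fosb 0.038, Egr1 0.13 turned. With array weights, at 20 ppm Fos 0.31, Junb 0.011, Egr1 0.032, Nr4a1 0.048, Dusp1 0.21, at 500 ppm Atf3 0.29, Nr4a1 0.24, Ier2 0.085, at 2500 ppm Fos 0.15, Egr1 0.21 and at 5000 ppm Fos 0.19, Fosb 0.035, Jun -0.041, Junb 0.062, Egr1 0.24 turned. Without control and 20 ppm mouse 1, at 20 ppm Fos 0.49, Junb 0.059, Egr1 0.27, Nr4a1 0.17, Dusp1 0.083, at 500 ppm Atf3 0.19, Nr4a1 0.20, Ier2 0.037, at 2500 ppm Fos 0.32, Egr1 0.40 and at 5000 ppm Fos 0.28, Fosb 0.062, Jun -0.087, Junb 0.059, Egr1 0.37 turned. Without these and 500 and 2500 ppm mouse 3, at 20 ppm Fos 0.49, Junb 0.059, Egr1 0.27, Nr4a1 0.17, Dusp1 0.083, at 500 ppm Atf3 0.30, Nr4a1 0.33, Ier2 0.092, at 2500 ppm Fos 0.29, Egr1 0.43 and at 5000 ppm Fos 0.28, Fosb 0.062, Jun -0.087, Junb 0.059, Egr1 0.37 turned. With 1 array left out, the ranges at 20 ppm were Fos -0.60 to 0.48, Fosb -0.17 to 0.13, Junb -0.35 to 0.068, Egr1 -0.48 to 0.49, Atf3 -0.73 to 0.37, Dusp1 -0.23 to 0.12 and Btg2 -0.053 to 0.73. With 1 array left out, the ranges at 500 ppm were Fos -0.28 to 0.79, Fosb -0.020 to 0.21, Junb -0.096 to 0.32, Atf3 -0.78 to 0.19, Nr4a1 -0.48 to 0.20, Ier2 -0.43 to 0.037, Dusp1 -0.15 to 0.39 and Btg2 -0.094 to 0.82. With 1 array left out, the ranges at 2500 ppm were Fos -0.75 to 0.32, Fosb -0.019 to 0.35, Egr1 -0.56 to 0.40 and Dusp1 -0.14 to 0.27. With 1 array left out, the ranges at 5000 ppm were Fos -0.80 to 0.28, Fosb -0.11 to 0.077, Jun -0.087 to 0.091, Junb -0.36 to 0.059, Egr1 -0.59 to 0.37 and Dusp1 -0.10 to 0.25.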
